A study of Mus musculus with 4 samples.

Results

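The 10 genes described here encode the G1 machinery that governs entry into the cell cycle in hematopoietic stem and progenitor cells: the D-type cyclins Ccnd1, Ccnd2 and Ccnd3, their kinases Cdk4 and Cdk6, the cyclin-dependent kinase (CDK) inhibitors Cdkn1b (p27), Cdkn1c (p57) and Cdkn2c (p18), and the pocket proteins Rb1 and Rbl2 (p130). They were chosen by name for this role, with earlier results of these data known. All 10 were present among the 18598 genes of the deposited table. RNA was measured in LSK cells, the lineage-negative, SCA-1-positive and c-KIT-positive fraction of bone marrow that contains the hematopoietic stem cells, sorted from C57BL/6 mice about 3 months old. Bptf encodes the largest subunit of NURF, a complex that moves nucleosomes. The Bptf-cKO group (genotype Bptf -/- in the labels) came from Bptf f/f;Mx1-cre mice in which polyinosinic-polycytidylic acid (pIpC) had induced cre, and the control group (control in the labels, Bptf f/f in the study's text) from mice that also received pIpC, all taken 10 days after induction. Each group had 2 libraries, each of cells pooled from 5 mice. The Mx1 promoter responds to interferon and is not restricted to stem cells, pIpC itself evokes interferon, and the control group named by the study carried no cre, so that deletion of Bptf and the presence of cre cannot be told apart in this comparison.

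In quiescent cells, RB1 and its relatives RBL1 (p107) and RBL2 bind E2F transcription factors and keep their target genes silent. Mitogens and cytokines induce D cyclins, which activate CDK4 and CDK6, and these kinases phosphorylate the pocket proteins and so release E2F. CDKN2C binds CDK4 and CDK6 directly, whereas CDKN1B and CDKN1C bind cyclin-CDK complexes. In adult bone marrow, p57 and p27 are known for holding stem cells in G0, and CDK6 for setting how fast they leave it.

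The short contacts between these proteins are written in their coding sequence, and the stretches that encode them are shown because they tie the members into 1 pathway. Each of the 3 D cyclins has, near its start, the pocket-protein binding motif LxCxE (leucine, any residue, cysteine, any residue, glutamate), encoded by codons 5 to 9 in Ccnd1 and 3 to 7 in Ccnd2 and Ccnd3. The first 60 coding bases follow, 5′ to 3′, from the GENCODE vM21 transcripts of GRCm38, with the motif codons in capitals.
Ccnd1: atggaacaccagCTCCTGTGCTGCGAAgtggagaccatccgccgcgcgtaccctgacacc
Ccnd2: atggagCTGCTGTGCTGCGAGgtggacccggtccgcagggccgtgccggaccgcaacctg
Ccnd3: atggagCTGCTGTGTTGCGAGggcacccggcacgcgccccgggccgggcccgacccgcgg

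These bases lie at chr7:144939634-144939693 (minus strand), chr6:127150714-127150773 (minus strand) and chr17:47593655-47593714 (plus strand). Over the coding bases that aligned without gaps, Ccnd1 and Ccnd2 were 72.4% identical (840 bases), Ccnd2 and Ccnd3 70.7% (843), and Ccnd1 and Ccnd3 68.8% (843). The inhibitors of the CIP/KIP family instead share the cyclin-binding motif RxLFG (arginine, any residue, leucine, phenylalanine, glycine), at codons 30 to 34 of Cdkn1b and 20 to 24 of Cdkn1c. It is in capitals in the 60 coding bases at chr6:134920986-134921045 (plus strand) and chr7:143460573-143460632 (minus strand).
Cdkn1b: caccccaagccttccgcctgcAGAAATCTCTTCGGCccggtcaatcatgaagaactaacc
Cdkn1c: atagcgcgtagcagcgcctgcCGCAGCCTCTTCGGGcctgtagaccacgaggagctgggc

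The coding sequences of Cdkn1b (591 bases) and Cdkn1c (1005 bases) were 69.8% identical over the 572 bases that aligned without gaps. Over such bases, Cdk4 and Cdk6 were 70.8% identical (895 bases), and Rb1 and Rbl2 62.7% (2617 bases). None of the 10 genes shared a stretch of 50 identical transcript bases with another of the 10. Stretches of that length were shared with genes outside the 10, on either strand. They made up 29.5% of those in Cdk4 (67 other genes), 27.2% in Ccnd1, 26.6% in Cdkn1c, 21.7% in Ccnd3 and 11.3% or less in the rest. Their part in the counts was not tested. Exons of some of the 10 genes overlap genes on the opposite strand, and the sources do not state whether the counting used strand. The overlap covers 23.4% of the Ccnd1 exons (with LTO1, listed as Oraov1), 30.7% of the Cdkn1c exons (with the antisense gene Gm44732) and 19.7% of the Cdk4 exons (with Tspan31).

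The reads on listed genes numbered from 14091054 to 30134742 per library. Bptf itself was lower in both Bptf-cKO libraries (3398 and 3320 normalized counts, that is, read counts divided by a size factor of the library) than in both control libraries (5520 and 5850), and this fall passed the test (log2 difference -0.76, limma adjusted p = 0.0439). The gate genes Kit and Ly6a, which encode c-KIT and SCA-1, were expressed in every library, Kit at 13634 to 17051 and Ly6a at 726 to 1743. The replicate 2 libraries of both groups stood apart from the replicate 1 libraries. Xist, the RNA of the inactive X chromosome, was read at 15675 and 11843 in replicate 2 and at 0.775 and 3.25 in replicate 1, pluripotency genes summed to 955 and 1244 against 76.0 and 33.8, and 14 of 15 G2 and M phase genes were higher in replicate 2 of both groups. Myeloid markers (9 of 9 tested) summed to 45025 and 12602 in control replicates 1 and 2 and to 49764 and 45758 in Bptf-cKO. Of them, 5 had a positive and 4 a negative log2 difference between the groups. Erythroid markers (7 of 7 tested, 6 of them lower in both Bptf-cKO libraries) summed to 2609 and 1938 in control and to 484 and 538 in Bptf-cKO. Long-term stem cell markers (10 of 10 tested, 7 lower in both) summed to 16609 and 22376 and to 10904 and 14249, respectively. Over all genes, 23.8% were lower in both Bptf-cKO libraries. Limma called 1 erythroid and 1 stem cell marker lower, against 0.370% of all genes. In such bulk samples, fewer cells of a type and less RNA per cell cannot be told apart. The part of these differences in the results below was not tested, but each of the 10 genes is also given within replicate 1 and within replicate 2.

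None of the 10 genes passed the test. Ccnd1 was 2.74-fold, Ccnd2 1.37-fold and Rbl2 1.12-fold the control level, each with both cKO libraries above both controls, while Ccnd3, the kinases, the inhibitors and Rb1 overlapped between the groups. The test ran across the 14858 genes whose normalized counts averaged 10 or more (limma on log2 of the normalized count plus 1, Benjamini-Hochberg adjusted p under 0.05, two-sided). Of the 10 genes, 0 were called higher and 0 lower, against 0.370% of all genes higher and 0.370% lower. At an unadjusted p under 0.05 stood 2 of the 10, Ccnd1 and Ccnd2, against 15.7% of all genes. Both cKO libraries lay above both control libraries in 3 of 10 genes (23.2% of all genes) and below them in 0 of 10 (23.8% of all genes). The median log2 difference of the 10 genes was 0.19, beside 0.0010 for all genes tested, with 6 of them positive and 4 negative. It was 0.026 without control replicate 2, 0.093 within replicate 1 and 0.15 within replicate 2.

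In fits with genotype as the only term, the calls of Ccnd1 and Ccnd2 depended on the test. On the reads recovered from the table, DESeq2 called 2 of 10 genes higher, Ccnd1 (log2 difference 1.46, DESeq2 adjusted p = 2.24e-04) and Ccnd2 (0.46, DESeq2 adjusted p = 0.00428), and 0 lower, where it called 2.28% of all genes higher and 3.57% lower. edgeR's quasi-likelihood test on the same reads called 0 of 10 (0.633% of all genes in either direction), with an adjusted p of 0.145 for Ccnd1 and 0.132 for Ccnd2.

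**Figure D1:**
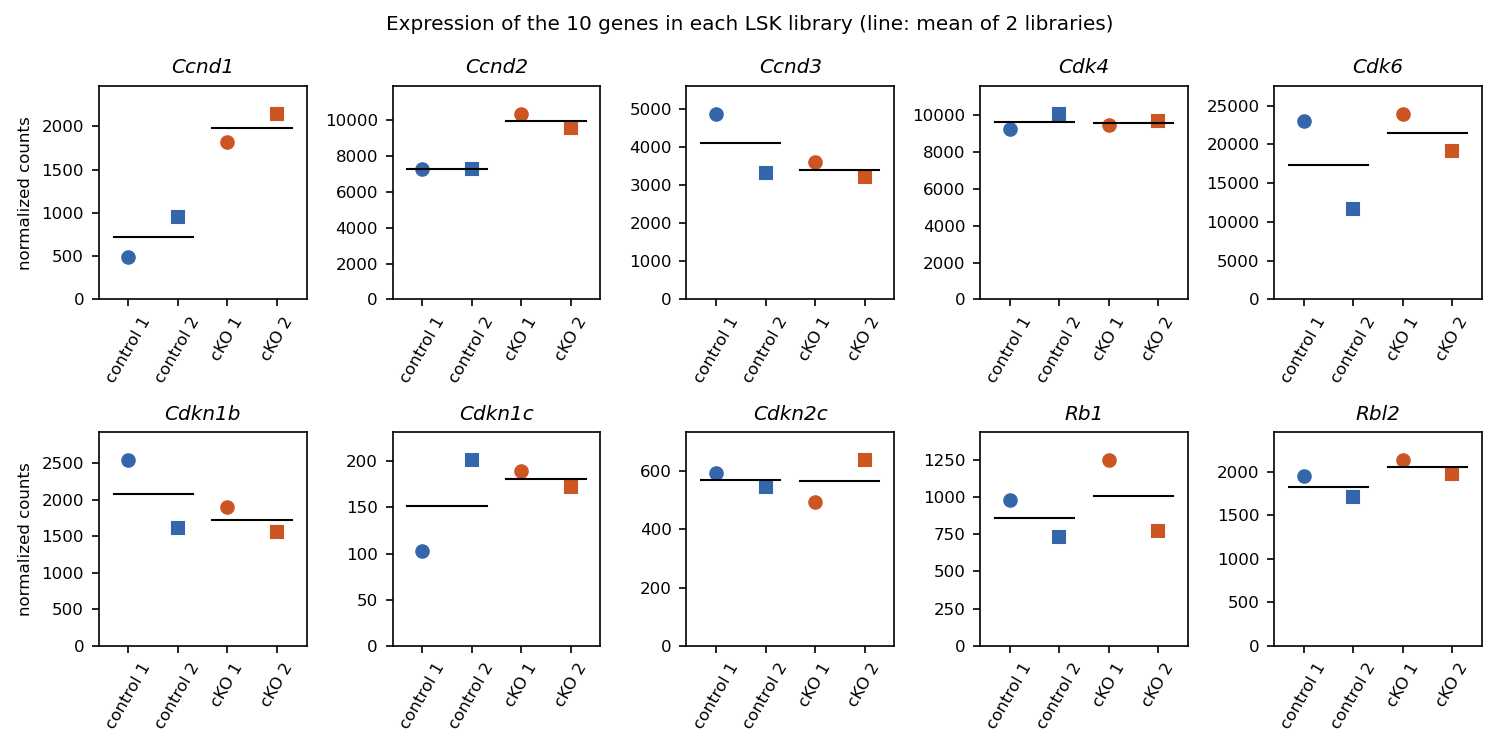
Normalized counts (read counts divided by a size factor, linear axes from 0) of each of the 10 genes in the 4 libraries, with control in blue, Bptf-cKO in orange, replicate 1 as circles, replicate 2 as squares and a line at the mean of each group's 2 libraries. The Bptf-cKO points lie above both control points for Ccnd1, Ccnd2 and Rbl2, and the groups overlap for the other 7 genes.

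Ccnd1, the cyclin D that many growth factor pathways induce, had 493 and 956 normalized counts in control replicates 1 and 2 and 1825 and 2145 in the Bptf-cKO replicates. Both cKO libraries were above both controls, and the control libraries themselves differed by a wider factor than the cKO libraries. The means were 725 ± 328 and 1985 ± 226 (SD, n = 2 each), and the log2 difference was 1.53 (SE 0.32, 95% confidence interval 0.72 to 2.33, limma adjusted p = 0.120). This placed Ccnd1 at rank 221 of all genes by signed difference from the highest. Within replicate 1 the difference was 1.89 and within replicate 2 it was 1.16. Leaving out control replicate 2 gave a difference of 2.00 that passed the test (limma adjusted p = 0.0295). Leaving out control replicate 1 gave 1.05 (limma adjusted p = 0.0692), and leaving out Bptf-cKO replicate 1 or 2 gave 1.64 and 1.41 (limma adjusted p = 0.326 and 0.514), which did not pass. The reads behind these values numbered from 636 to 2808 per library. Oraov1, the gene on the opposite strand that shares exon bases with Ccnd1, had 462 and 428 normalized counts in control and 400 and 425 in Bptf-cKO. The part of the shared bases in the Ccnd1 values was not tested.

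Ccnd2, the D cyclin with the highest normalized counts here, had 7293 and 7262 normalized counts in control and 10368 and 9575 in Bptf-cKO. The control libraries were nearly equal, and both cKO libraries were higher. The means were 7278 ± 21.7 and 9971 ± 561 (SD, n = 2 each), with a log2 difference of 0.45 (SE 0.092, 95% confidence interval 0.22 to 0.69, limma adjusted p = 0.115). It was 0.51 within replicate 1 and 0.40 within replicate 2.

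Ccnd3, known for its role in lymphoid and erythroid progenitors, had 4879 and 3330 normalized counts in control and 3606 and 3223 in Bptf-cKO. Control replicate 1 was the highest library, and Bptf-cKO replicate 1 lay above control replicate 2, so the groups overlapped. The log2 difference was -0.24 (95% confidence interval -0.74 to 0.25, limma adjusted p = 0.624), with -0.44 within replicate 1 and -0.047 within replicate 2.

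**Figure D2:**
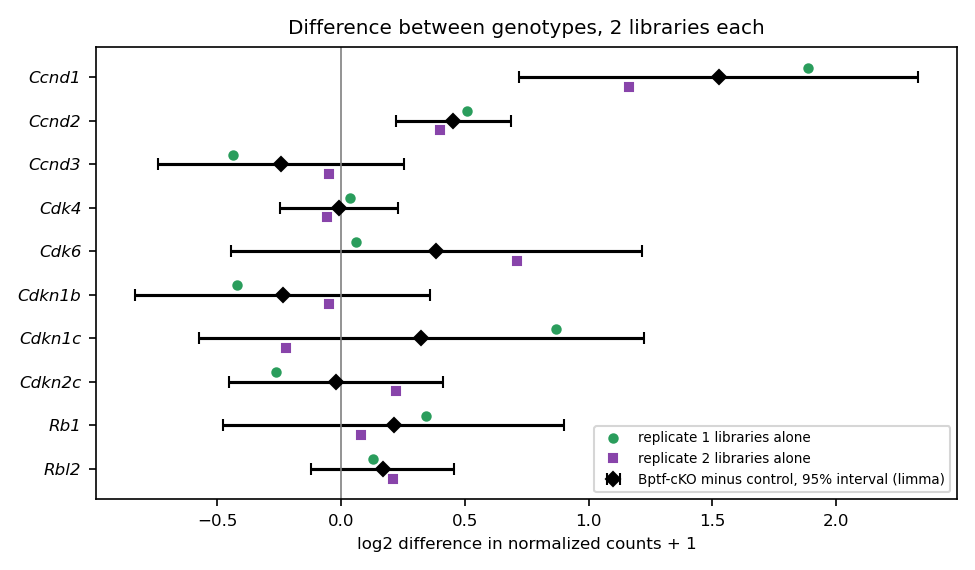
Log2 difference of Bptf-cKO minus control in normalized counts plus 1 for each of the 10 genes, with diamonds and bars for the limma estimate and its 95% confidence interval, green circles for the replicate 1 libraries alone and purple squares for the replicate 2 libraries alone. The intervals of Ccnd1 (0.72 to 2.33) and Ccnd2 (0.22 to 0.69) lie above 0, and those of the other 8 genes include 0.

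Cdk4, the kinase partner of D cyclins in most cell types, was level across libraries, with 9228 and 10072 normalized counts in control and 9473 and 9692 in Bptf-cKO. Both cKO values fell between the control values. The log2 difference was -0.0089, and its 95% confidence interval, -0.25 to 0.23, excludes a change as large as the one measured for Ccnd1. Within replicate 1 the Cdk4 difference was 0.038, and within replicate 2 it was -0.055.

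Cdk6, the D cyclin kinase that predominates in hematopoietic cells, had 22994 and 11677 normalized counts in control and 23944 and 19127 in Bptf-cKO. Control replicate 2 was low, and the other 3 libraries were close to each other. The log2 difference was 0.39 (SE 0.33, 95% confidence interval -0.45 to 1.22, limma adjusted p = 0.643), 0.058 within replicate 1 and 0.71 within replicate 2. The summed myeloid markers given above were also lowest in control replicate 2, though some single markers of that list were not. The summed lymphoid markers (1874) and the summed stromal and endothelial markers (1853) were lowest there too. Those of the erythroid, megakaryocyte, multipotent progenitor and long-term stem cell lists were not. The part of these marker differences in the Cdk6 value was not tested. Without control replicate 2 the log2 difference was -0.10.

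None of the 3 inhibitors separated the groups. Cdkn1b, which encodes p27, had 2543 and 1622 normalized counts in control and 1898 and 1566 in Bptf-cKO, with a log2 difference of -0.24 (95% confidence interval -0.83 to 0.36, limma adjusted p = 0.700). Control replicate 1 was the highest, and the difference was -0.42 within replicate 1 and -0.050 within replicate 2.

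Cdkn1c, which encodes p57 and is expressed from the maternal allele of an imprinted domain, was the lowest of the 10 genes, with 103 and 201 normalized counts in control and 189 and 172 in Bptf-cKO. Control replicate 1 was below the other 3 libraries. The log2 difference was 0.32 (95% confidence interval -0.57 to 1.22, limma adjusted p = 0.731), and its sign differed between replicate 1 (0.87) and replicate 2 (-0.22). Only 122 to 291 reads per library stood behind these values, a counting error of up to 9.05% per library.

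Cdkn2c, which encodes the CDK4 and CDK6 inhibitor p18, had 593 and 546 normalized counts in control and 494 and 636 in Bptf-cKO. The control values lay between the cKO values. The log2 difference was -0.021 (95% confidence interval -0.45 to 0.41, limma adjusted p = 0.972). Its sign differed between replicate 1 (-0.26) and replicate 2 (0.22).

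Of the pocket proteins, Rbl2, which binds E2F mainly in resting cells, had 1952 and 1709 normalized counts in control and 2132 and 1977 in Bptf-cKO. Both cKO libraries were above both controls (the nearest pair being 1977 and 1952), and the log2 difference was 0.17 (95% confidence interval -0.12 to 0.46, limma adjusted p = 0.550). Within replicate 1 it was 0.13, and within replicate 2 it was 0.21. Rb1 had 983 and 729 normalized counts in control and 1247 and 772 in Bptf-cKO. Replicate 1 was the higher library in both groups, and the log2 difference was 0.21 (95% confidence interval -0.48 to 0.90, limma adjusted p = 0.777). Within replicate 1 it was 0.34, and within replicate 2 it was 0.082.

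Several of the 10 genes differed between the replicate numbers in the same direction in both groups. In 6 of 10 genes (Ccnd2, Ccnd3, Cdk6, Cdkn1b, Rb1 and Rbl2) replicate 1 was higher than replicate 2 in both groups, against 33.3% of all genes. Ccnd1 and Cdk4 were higher in replicate 2 of both groups. The labels do not say what the replicate number stands for.

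Levels of different genes were compared as normalized counts per kb of exon, with the union of all annotated exons as the length. In control cells Cdk4 was the highest of the 10 at 2970 ± 184 per kb, followed by Cdk6 (1239 ± 572) and Ccnd2 (773 ± 2.31), each with libraries that did not overlap those of the next gene. Ccnd3 (468 ± 125) and Cdkn1b (457 ± 143) could not be ranked against each other. Rbl2 (242 ± 22.7) and Cdkn2c (212 ± 12.3) followed, then Ccnd1 (154 ± 69.6) and Rb1 (142 ± 29.8), which overlapped each other, and Cdkn1c (74.6 ± 33.9) was last (SD, n = 2 for each). Parts of this order depended on the length used. Per kb of the longest transcript, Cdk4 remained highest and Cdkn1c lowest by mean, but Cdk6 (1995 and 1013 per kb in control), Ccnd2 (1152 and 1147) and Ccnd3 (1265 and 863) overlapped. With the union of exons, in the Bptf-cKO cells Ccnd1 stood at 421 ± 48.0 per kb, beside 389 ± 30.9 for Ccnd3 and 380 ± 51.5 for Cdkn1b. Over all libraries the genes ranged from the percentile 98.6 for Cdk4 to 40.1 for Cdkn1c among 14584 genes with an exon length.

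The D cyclins together amounted to 1436 and 1354 normalized counts per kb in control and 1900 and 1840 in Bptf-cKO (1395 ± 57.6 and 1870 ± 42.5, SD, n = 2 each), a ratio of 1.34. On this scale Ccnd2 was 286 and Ccnd1 268 per kb higher in the cKO mean, and Ccnd3 was lower by a difference of -78.7. Per kb of the longest transcript, these differences were 425 for Ccnd2, 337 for Ccnd1 and -179 for Ccnd3, and the ratio of the sums was 1.24. Ccnd1 made up 7.29% and 15.0% of the D cyclin signal in control and 20.4% and 24.7% in Bptf-cKO (11.1 ± 5.45 and 22.6 ± 3.08, SD, n = 2 each). Ccnd3 made up 38.7% and 28.0% in control and 21.6% and 20.0% in Bptf-cKO, and Ccnd2 54.0% and 57.0% against 58.0% and 55.3%. The groups did not overlap in the Ccnd1 and Ccnd3 shares and overlapped in the Ccnd2 share. With longest-transcript lengths the Ccnd2 share did not overlap either, at 45.2% and 50.6% in control and 53.5% and 51.8% in Bptf-cKO. The Cdk6 share of Cdk4 and Cdk6 was 36.7% and 21.2% in control and 37.0% and 31.4% in Bptf-cKO, with overlapping groups. With 2 libraries against 2, a two-sided exact permutation test over the libraries cannot give a p below 0.333.

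**Figure D3:**
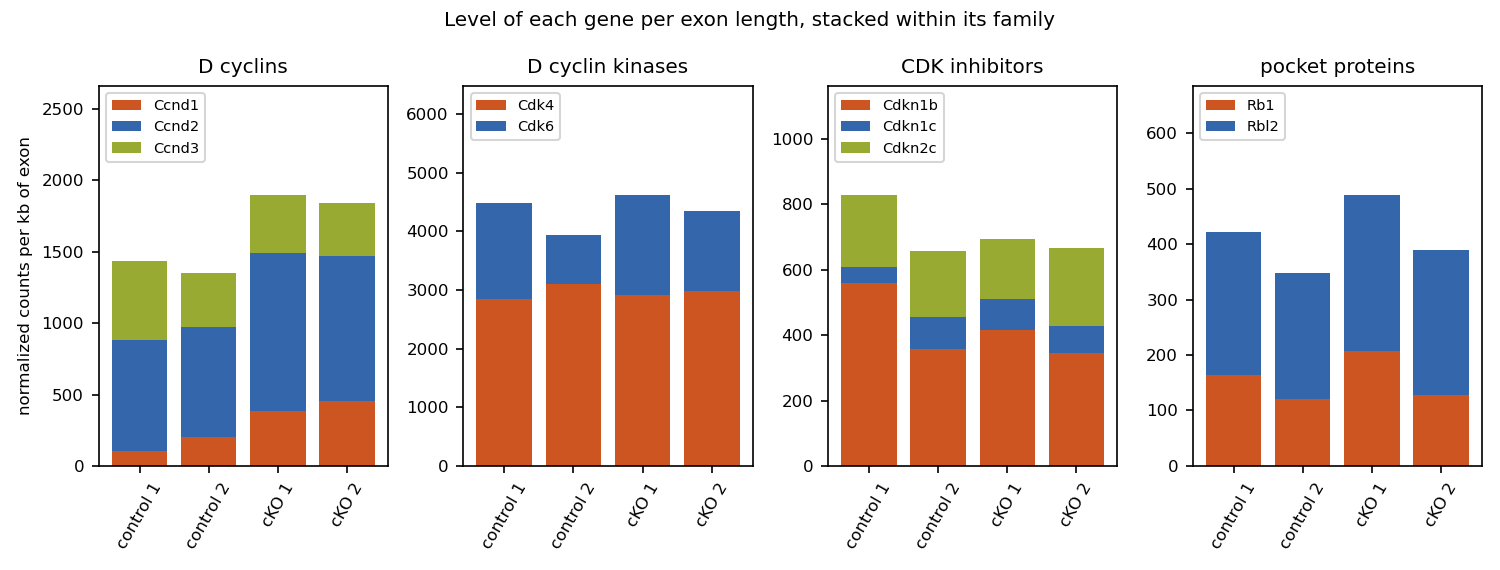
Normalized counts per kb of exon in each library, with the genes of each family (D cyclins, D cyclin kinases, CDK inhibitors, pocket proteins) stacked in 1 bar per library and a separate axis from 0 for each family. The D cyclin bars reach 1436 and 1354 in control and 1900 and 1840 in Bptf-cKO, and their Ccnd1 segment is larger in both Bptf-cKO libraries.

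Among 10814 other genes that averaged 100 normalized counts or more, the 3 whose pattern over the 4 libraries was closest to that of Ccnd1 were Cars, the cysteinyl-tRNA synthetase, at a Euclidean distance of 0.242 between the centred log2 values, Cyb561, a cytochrome b561 (0.276), and Spry4, an inhibitor of receptor tyrosine kinase signaling (0.360). Cars had 852 and 1311 normalized counts in control and 2681 and 3266 in Bptf-cKO. With 4 libraries such closeness describes these samples only.

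**Figure D4:**
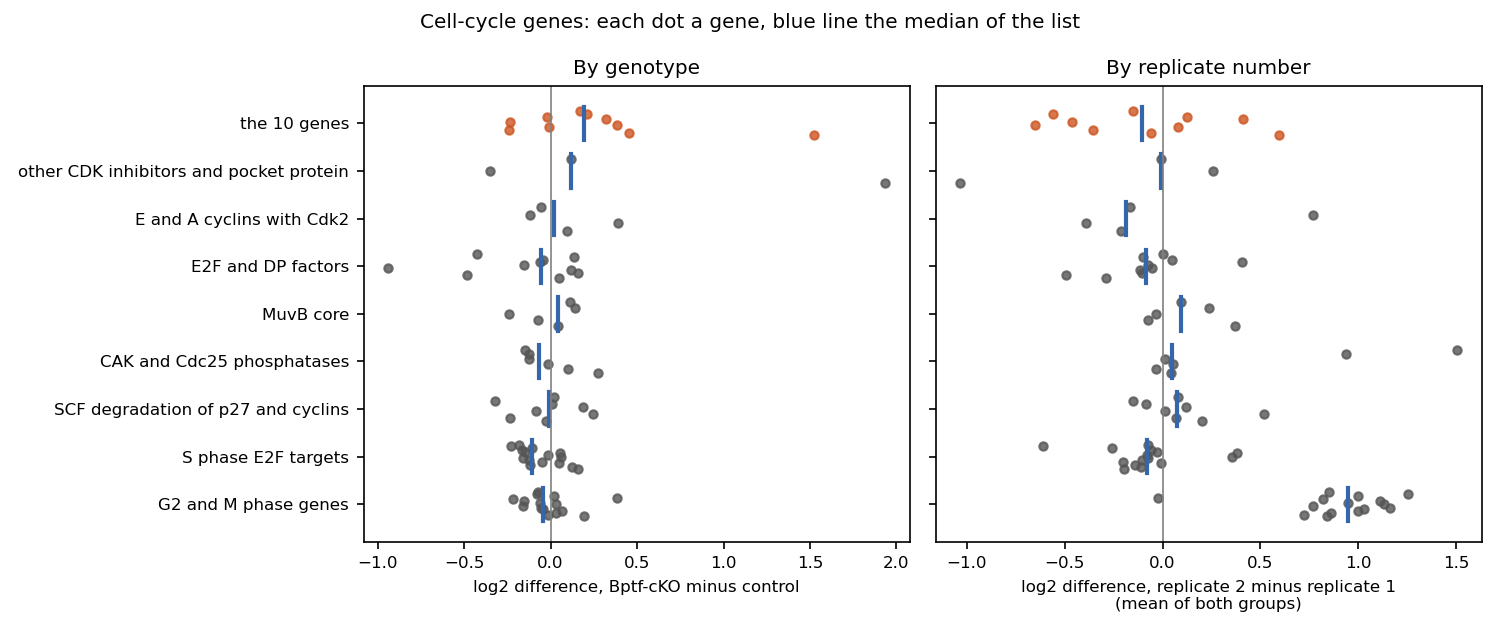
Log2 differences of the 10 genes (orange) and of the genes tested in 8 other cell-cycle lists (grey), with 1 dot per gene and a blue line at the median of each list; the left panel gives Bptf-cKO minus control and the right panel replicate 2 minus replicate 1, as the mean of both groups. By genotype the medians of the 8 lists lie between -0.10 and 0.12, beside 0.19 for the 10 genes, and by replicate number 14 of the 15 G2 and M phase genes were higher in replicate 2 of both groups.

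The rest of the pathway was read from 8 lists of other cell-cycle genes, of which 66 of 69 genes were tested. Limma and edgeR called 0 of the 66 in either direction, 5 had an unadjusted limma p under 0.05 (7.58%, against 15.7% of all genes), DESeq2 called 0 higher (2.28% of all genes) and 2 lower (E2f5 and Tfdp2, 3.03% against 3.57% of all genes), and their median log2 difference was -0.045. Among the other inhibitors and pocket proteins, 3 of 5 were tested, with 0 called. Cdkn1a, the p53-responsive inhibitor p21, had 795 and 213 normalized counts in control and 1676 and 1486 in Bptf-cKO. Both cKO libraries were above both controls, but the control libraries differed widely, and the log2 difference of 1.93 did not pass the test (SE 0.59, limma adjusted p = 0.228, DESeq2 adjusted p = 0.329). Cdkn2d, which encodes p19, and Rbl1, the third pocket protein, had log2 differences of -0.35 and 0.12.

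The E2F and DP factors had a median log2 difference of -0.054 over 10 of 10 genes, with 0 called by limma. E2f5, which works as a repressor with RBL2, had 203 and 193 normalized counts in control and 104 and 102 in Bptf-cKO (log2 difference -0.94, limma adjusted p = 0.132, DESeq2 adjusted p = 0.0485). The libraries of each group were close together and the groups did not overlap. Tfdp2, a dimerization partner of E2F, had 2716 and 2651 against 1973 and 2028 (log2 difference -0.42, limma adjusted p = 0.128, DESeq2 adjusted p = 0.0241). E2f2, an activating E2F, had a difference of -0.48, with overlapping groups. Both E2f5 and Tfdp2 were called lower by DESeq2 and by neither limma nor edgeR, and the share of DESeq2 calls in the 8 lists was no higher than over all genes.

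Genes downstream of the pathway differed little. The 15 S phase genes that E2F controls had a median log2 difference of -0.10 and ranged from -0.23 to 0.16 (Mcm2), with 10 negative and 5 positive. Of these, 0 were called and 0 had an unadjusted p under 0.05. Both cKO libraries lay below both controls in 5 of 15 (23.8% of all genes) and above them in 1 (23.2% of all genes). The 15 G2 and M phase genes had a median of -0.045 with 0 called, and their sum was 53214 and 95132 normalized counts in control and 54193 and 97590 in Bptf-cKO, so that the sum followed the replicate number and differed little by genotype within each. In that list Mybl2, the B-MYB factor, had the largest difference (0.38, limma adjusted p = 0.185). The MuvB core, which joins RBL2 and E2F4 in the DREAM repressor of quiescent cells, had a median of 0.042 over 5 of 5 genes with 0 called.

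The remaining lists were the E and A cyclins with Cdk2, the CDK-activating kinase with the Cdc25 phosphatases, and the ubiquitin ligase genes that degrade p27 and cyclins. The first had a median log2 difference of 0.019 (4 of 5 genes tested, 0 called), where Ccne2, an E cyclin, had the largest difference at 0.39. In the second, with a median of -0.067 (6 of 6 tested, 0 called), it was Ccnh, the cyclin of the CDK-activating kinase (0.27). In the third, with a median of -0.0076 (8 of 8 tested, 0 called), Fbxo31, an F-box gene that targets cyclin D1, was at -0.32, Cks1b, which helps SKP2 bind p27, at 0.25, and Skp2, the F-box gene that targets p27, at -0.23. Of this list, 4 genes were positive and 4 negative, and in 2 of 8 (against 23.8% of all genes) both cKO libraries lay below both controls.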

How the data were processed

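Per the labels, total RNA from sorted LSK cells was made into libraries with Illumina kits. The submitters' processing notes name HISAT2, featureCounts, DESeq2 and the GRCm38 (mm10) build, and versions, annotation and strand setting are not given in the sources used here. The authors deposited a signal per gene and library, the read count divided by a size factor. Each value was a whole multiple of the value of 1 read (tolerance 0.01), so 100% of values gave whole reads. Only genes with at least 11 reads over the 4 libraries are listed. The authors' columns of their own comparison (mean, log2 fold change with its error and statistic, p-value, adjusted p) were not used. The value columns named WT were taken as the control group.

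The main fit was made in R 4.3.3 with limma 3.58.1 (trend option) on log2 of the normalized count plus 1, over genes averaging 10 or more, with a single term for genotype and p-values adjusted by Benjamini-Hochberg over all of them. Confidence intervals are at 95%. On the recovered reads, edgeR 4.0.16 (quasi-likelihood) and DESeq2 1.42.0 were run as alternatives. The fits were first tested on simulated counts without a difference between replicate numbers, so that test does not cover the difference seen here. Other alternatives were the replicate block, pseudocounts of 0.5 and 10, no filter, a mean of at least 50, median recentring, quantile normalization, no trend, and each library left out. The replicate 1 libraries alone and the replicate 2 libraries alone were added after seeing the data. The labels do not say that the 2 replicates of a number share mice or a day. Replicates differed by more than sampling noise (chi-square per gene 29.2 in control and 19.7 in Bptf-cKO), and with 2 libraries per group the spread between them limits precision more than counting does, except for genes with few reads.

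Exon lengths (union of exons, 98.2% of the tested genes matched by symbol) and sequences came from GENCODE vM21 on GRCm38. The genes and lists were chosen with earlier results of these data known. All 10 members are named. From the other cell-cycle and imprinted lists, genes past the limma threshold and up to 3 with the largest absolute difference could be named, and Bptf, Mcm2, Oraov1, Xist, Kit, Ly6a, Kcnq1ot1, Dlk1 and Grb10 were named outside that rule with their values known. Summaries were made with Python 3.11.15, numpy 2.4.6 and pandas 2.3.3.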

Additional observations from a re-analysis of the deposited data

How the results depend on the processing

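Of the 10 genes, 0 were called lower in every fit run. The number called higher was 2 instead of 0 with DESeq2, and 2 with the replicate block in limma, edgeR and DESeq2, in each case Ccnd1 and Ccnd2. The same fits with the block called 6.03%, 6.00% and 2.79% of all genes higher, respectively. With the replicate block, the limma adjusted p was 4.97e-05 for Ccnd1 and 0.00453 for Ccnd2, and the limma calls over all genes went from 55 lower and 55 higher to 1242 lower and 896 higher. Deviations of same-numbered libraries from their group means correlated across genes (r = 0.452 over 14858 genes, 0.638 over the 10815 with a mean of at least 100), and Xist, pluripotency and G2 and M phase genes separated the replicate numbers in both groups. With 2 pairs and no label saying what a number stands for, the block was kept as an alternative. Leaving out single libraries gave 0 to 1 genes higher (Ccnd1 without control replicate 2) and 0 lower. The median of the 10 genes then ranged from 0.026 (without control replicate 2) to 0.31, and the cKO minus control difference in the Ccnd1 share of the D cyclins from 7.58 to 15.3 percentage points, beside 11.4 over all libraries and 9.56 with longest-transcript lengths.

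The sign was the same as reported in 147 of 160 values (10 genes, 16 alternatives), and 0 of the 13 that reversed were called. Median recentring, which moved the median of all genes to 0.053, gave 0.043 for Cdk4 and 0.030 for Cdkn2c, and quantile normalization gave 0.024 for Cdkn2c. Leaving out single libraries gave ranges across 0 for Ccnd3 (-0.52 to 0.034), Cdk4 (-0.072 to 0.054), Cdk6 (-0.10 to 0.87), Cdkn1b (-0.56 to 0.088), Cdkn1c (-0.15 to 0.80), Cdkn2c (-0.20 to 0.16) and Rb1 (-0.13 to 0.56), and none across 0 for Ccnd1 (1.05 to 2.00), Ccnd2 (0.40 to 0.51) and Rbl2 (0.073 to 0.26). The causes were not tested. Calls over all genes moved by over 1.5 times from 55 lower and 55 higher: DESeq2 called 500 lower and 319 higher, limma without the trend 0 and 2, without control replicate 2 17 and 47, and without either Bptf-cKO replicate 0 and 1.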

Other observations

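Cdkn1c belongs to the imprinted Kcnq1 domain, and 8 of 9 other genes listed for it were tested. Limma, edgeR and DESeq2 called 0 of them, and 2 had an unadjusted limma p under 0.05 (15.7% of all genes). Their median log2 difference was 0.042, with 4 positive and 4 negative. Kcnq1ot1, the long noncoding RNA whose transcription silences the paternal copies in cis, had 697 and 529 normalized counts in control and 627 and 518 in Bptf-cKO, with overlapping groups. Ascl2, a basic helix-loop-helix factor, had 6.98 and 2.77 in control and 21.4 and 22.6 in Bptf-cKO (log2 difference 2.07, limma adjusted p = 0.231), values that rest on 2 to 33 reads per library.

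Of 12 other imprinted genes linked to growth, 10 were tested, with 0 called by limma or edgeR, 4 at an unadjusted limma p under 0.05 (15.7% of all genes), and by DESeq2 1 higher (2.28% of all genes) and 2 lower (3.57% of all genes). Dlk1, a NOTCH-family ligand and the gene called higher by DESeq2, had 38.8 and 37.4 normalized counts in control and 104 and 95.9 in Bptf-cKO (log2 difference 1.37, limma adjusted p = 0.119, DESeq2 adjusted p = 0.0416). Grb10, an adaptor that restrains insulin receptor signaling, had 1389 and 3258 normalized counts in control and 5252 and 8316 in Bptf-cKO (log2 difference 1.63, limma adjusted p = 0.186, DESeq2 adjusted p = 0.195). Ndn, a growth suppressor studied in stem cell quiescence, had 179 and 320 in control and 62.4 and 50.8 in Bptf-cKO (-2.07, limma adjusted p = 0.0831, DESeq2 adjusted p = 7.34e-05). Meg3, a maternally expressed noncoding RNA, had 89.1 and 38.8 in control and 5.20 and 16.9 in Bptf-cKO (-2.51, limma adjusted p = 0.205, DESeq2 adjusted p = 0.0497). In each of these 4 genes the groups did not overlap. Of the 10 tested, both cKO libraries lay above both controls in 3 (23.2% of all genes) and below them in 3 (23.8% of all genes). H19, a noncoding RNA of the Igf2 domain, had 10.9 and 29.1 in control and overlapped between the groups, with a value of 0 in Bptf-cKO replicate 2.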
